A study of Mus musculus with 55 samples.

Results

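Cyp2a4, Cyp2a5, Cyp2a12, Cyp2a22, Cyp2b9, Cyp2b10 and Cyp2b13, the mouse cytochrome P450 genes of the Cyp2a and Cyp2b subfamilies analysed here, were followed across livers of the Collaborative Cross (CC). They were picked by gene symbol and are 7 of the 37620 genes quantified in each liver. In the CC, inbred founder strains were intercrossed and their descendants inbred again, so that each line carries its own mosaic of founder genomes and mice of a line are close to genetically identical. Liver mRNA was sequenced from 55 naive male mice of 29 CC lines, with no treatment in any group, and the line is the only factor on which the groups differ by design. A line had 1 mouse in 8 cases, 2 mice in 16 and 3 mice in 5. The mice were 8 to 11.9 weeks old and weighed 12.8 to 38 g, and they shared tap water and chow ad libitum. Replicates are separate mice of a line, numbered here in the order in which they were deposited.

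Cytochromes P450 are heme enzymes of the endoplasmic reticulum that oxidise drugs and steroids with electrons passed on by the reductase Por, and the liver holds most of the body's supply. Cyp2a5 is known for the hydroxylation of coumarin and nicotine, Cyp2a4 for that of testosterone, Cyp2a12 for oxidation of steroids and bile acids, and Cyp2b10 as the textbook target of the constitutive androstane receptor (CAR), the nuclear receptor encoded by Nr1i3 through which phenobarbital induces P450 genes. Cyp2a4, Cyp2b9 and Cyp2b13 are known as genes with higher expression in livers of female mice than of male mice.

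The 7 genes lie within 1139188 bases of chromosome 7 (26682639 to 27821826, NCBI37), and all but Cyp2a22 are on the plus strand. From the start of the segment the order is Cyp2b10 (26682639 to 26711643), Cyp2b13 (26846514 to 26881215), Cyp2b9 (26958430 to 26995680), Cyp2a4 (27092209 to 27100107), Cyp2a5 (27620324 to 27628567), Cyp2a22 (27716650 to 27724405) and Cyp2a12 (27814109 to 27821826). They form pairs of near copies. The coding sequences of Cyp2a4 and Cyp2a5 were 98.5% identical, with 23 mismatches in 1485 bases. Those of Cyp2a12 and Cyp2a22 were 97.0% identical, and those of Cyp2b9 and Cyp2b13 92.5%. A Cyp2a and a Cyp2b gene shared between 61.2% and 64.1%.

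The promoters of the near copies were also close to each other. All 7 genes were found in the RefSeq table of promoters (GRCm38.p6), each entry covering 250 bases before and 50 bases after the annotated start of transcription. The windows of Cyp2b9 (chr7:26173159-26173458) and Cyp2b13 (chr7:26061245-26061544) differed at 2 of 300 bases, T48C and C104T, with the base of Cyp2b9 first and positions counted from the 5′ end of the window. The windows of Cyp2a4 (chr7:26306942-26307241) and Cyp2a5 (chr7:26835089-26835388) were shifted by 1 base and differed at 5 of the 299 aligned bases, C19T, T131C, G161A, G205T and T270C, with the base of Cyp2a4 first. They are shown because the members of each pair reached very different levels in the same livers. Capitals mark the bases in which the members of a pair differ, or that had no partner in the alignment.
Cyp2b9: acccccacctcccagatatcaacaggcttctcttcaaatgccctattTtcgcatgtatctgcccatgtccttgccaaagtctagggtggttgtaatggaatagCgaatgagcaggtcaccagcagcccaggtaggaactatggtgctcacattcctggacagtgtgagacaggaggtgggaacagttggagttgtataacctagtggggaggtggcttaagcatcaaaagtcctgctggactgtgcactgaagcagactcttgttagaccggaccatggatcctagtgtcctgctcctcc
Cyp2b13: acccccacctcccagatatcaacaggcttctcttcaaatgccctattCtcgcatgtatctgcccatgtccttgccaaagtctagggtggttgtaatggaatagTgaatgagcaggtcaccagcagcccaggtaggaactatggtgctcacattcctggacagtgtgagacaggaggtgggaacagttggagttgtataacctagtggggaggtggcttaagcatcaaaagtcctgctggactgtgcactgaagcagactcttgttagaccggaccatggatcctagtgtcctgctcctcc
Cyp2a4: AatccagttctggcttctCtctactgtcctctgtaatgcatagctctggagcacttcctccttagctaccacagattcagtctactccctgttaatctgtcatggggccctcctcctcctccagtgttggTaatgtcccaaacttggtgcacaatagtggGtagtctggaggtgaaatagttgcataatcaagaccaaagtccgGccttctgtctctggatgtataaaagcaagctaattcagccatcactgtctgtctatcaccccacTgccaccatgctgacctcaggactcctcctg
Cyp2a5: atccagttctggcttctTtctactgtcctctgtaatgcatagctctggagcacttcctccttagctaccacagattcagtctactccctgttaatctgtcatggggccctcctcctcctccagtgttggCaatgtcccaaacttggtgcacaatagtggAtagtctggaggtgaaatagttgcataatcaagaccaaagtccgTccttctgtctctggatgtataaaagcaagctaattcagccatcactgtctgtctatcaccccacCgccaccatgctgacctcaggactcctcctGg
The letters TATAAA, the TATA box, were present in the windows of the 4 Cyp2a genes and of none of the 3 Cyp2b genes, and in 13.6% of the 32851 promoter windows of the table. The hexamer AGGTCA, to which nuclear receptors bind, was found in Cyp2a4, Cyp2a5, Cyp2b9 and Cyp2b13, and in 16.3% of all windows. The match in Cyp2a4 and Cyp2a5 started 31 and 30 bases after the start of transcription, on the minus strand, and the match in Cyp2b9 and Cyp2b13 lay 138 bases before it. The C/EBP core TTGCNNAA was found in Cyp2a4, Cyp2a5, Cyp2b9, Cyp2b10 and Cyp2b13 and in 10.8% of all windows. The direct repeat of AGGTCA with 4 bases between, the STAT site TTCNNNGAA and the antioxidant response core TGACNNNGC had no match in any of the 7 windows, against 0.0152%, 8.3% and 12.4% of all windows. Both strands were searched, and of the motifs only the repeat contains another, AGGTCA. A match is no evidence of binding, and the lack of one says nothing about sequence outside the windows. The windows are of the reference genome and not of the CC lines.

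Because fragments of near copies can be exchanged, the share of each transcript that no other protein-coding gene has was counted in words of 50 bases, the read length. Pseudogenes and non-coding transcripts were not searched. In Cyp2a4, 63.5% of 1668 words occurred in no protein-coding transcript of another gene, and the 609 shared words were all shared with Cyp2a5. The share of own words was 69.0% in Cyp2a5, 72.1% in Cyp2a12 and 79.4% in Cyp2a22, which shared 449 words with Cyp2a12. It was 89.2% in Cyp2b9, 92.1% in Cyp2b10 and 81.0% in Cyp2b13. The levels of the low member of a pair are therefore uncertain where the high member is strong, and the founder strains differ from the reference genome to which all reads were aligned. Cyp2a4 was at 0.10 FPKM in IL-557, where Cyp2a5 was at 118.49 FPKM (FPKM are fragments scaled for transcript length and for the depth of the library).

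Depth was 20542670 to 33953036 estimated fragments per mouse. Hepatocyte markers (Alb, Apoa1, Ttr, Apob, Serpina1a and Cps1, 6 of 6 detected) summed to between 17928 and 70088 FPKM, while the 6 Kupffer cell markers summed to 9.55 to 264 FPKM the 5 sinusoidal endothelial markers to 11.6 to 66.1 FPKM and 5 pancreatic acinar markers to 1.24 to 260 FPKM. Whether these cells had a part in the differences below was not tested. In bulk liver, fewer cells of a type and less RNA per cell cannot be told apart. No line mates had identical values. In IL-1052 and IL-2750 the mice did not resemble their line mates at several of the genes described here, so results are also given without these lines. Xist stood at 39.5 FPKM in IL-785 replicate 3 and at 0.12 FPKM or less in the other 54 mice, while the Y-linked Ddx3y was at 12.6 FPKM in that mouse, within the range of the others, and results were recomputed without it.

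All 7 genes differed among the 21 lines with at least 2 mice (edgeR quasi-likelihood F test on counts, 47 mice). In the same test 88.5% of the 15285 genes tested passed, so that passing it does not set the 7 genes apart. All 7 also passed in the DESeq2 likelihood ratio test, as did 88.8% of 15260 genes, and without IL-1052 and IL-2750, as did 89.1% of 15249 genes. The adjusted p was 1.1e-10 for Cyp2a4, 7.3e-04 for Cyp2a5, 2.1e-07 for Cyp2a12, 0.0030 for Cyp2a22, 1.3e-07 for Cyp2b9, 6.5e-07 for Cyp2b10 and 1.8e-04 for Cyp2b13. With at least 10 counts required in every mouse, 94.1% of 10700 genes passed, among them 3 of the 7, and the other 4 could not be tested, since Cyp2a4, Cyp2b9, Cyp2b10 and Cyp2b13 fell below this level in part of the livers.

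**Figure D1:**
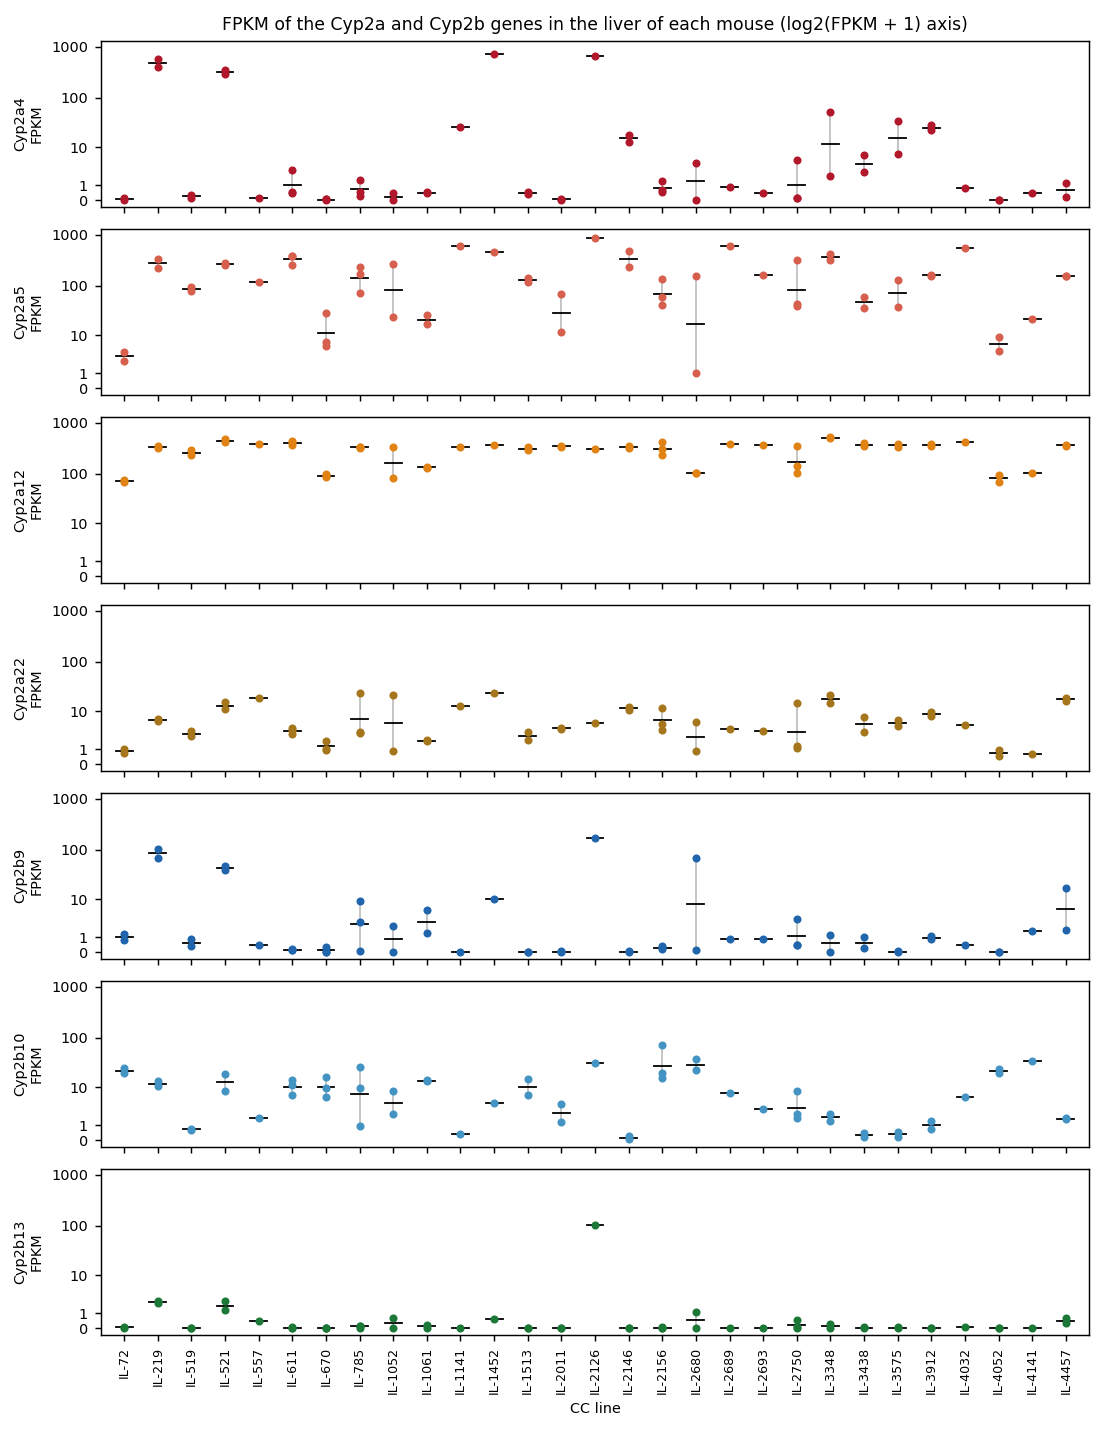
FPKM of the 7 genes in each of 55 livers (points), by CC line, on a log2(FPKM + 1) axis that is the same in all panels. Black bars are line means on that scale and grey lines span the mice of a line; Cyp2a4 was at 294.75 FPKM or more in IL-219, IL-521, IL-1452 and IL-2126 and at 53.35 FPKM or less in every other mouse.

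Cyp2a4 was abundant in 4 lines and low in the others. It reached 722.71 FPKM in the mouse of IL-1452 and 658.70 in that of IL-2126, 399.79 and 571.90 FPKM in the mice of IL-219 and 294.75 and 346.13 in those of IL-521. The next line mean was 27.7 FPKM, in IL-3348, where the mice had 53.35 and 2.05 FPKM. The gap between IL-521 and IL-3348 was 11.6-fold in the line means, and the mice on either side of it did not overlap. In 16 of the 29 lines the mean was under 1 FPKM, and 3 mice were at 0. The median over mice was 0.46 FPKM, and the mouse at that value, IL-1061 replicate 1, had 17.0 fragments of Cyp2a4.

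Cyp2a5, the near copy of Cyp2a4, was expressed in nearly all livers, with a lowest value of 0.99, a median of 134.86 and a highest of 888.44 FPKM. The line means ran from 3.34 FPKM in IL-72, with mice at 4.17 and 2.50, to 888 FPKM in IL-2126, without a break between them larger than 2.09-fold. Of the 20 pairs of neighbours in the order of the 21 lines with at least 2 mice, 17 overlapped in the range of their mice, so that the order is not fixed line by line. The other genes were alike in this, with 16 (Cyp2a4) to 19 (Cyp2b13) overlapping pairs of 20. Cyp2a4 as a percentage of Cyp2a5 ranged from 0 to 178% with a median of 0.775% over the 54 mice with Cyp2a5 of at least 1 FPKM. Cyp2a4 exceeded Cyp2a5 in IL-219, IL-521 and IL-1452, and reached less of it in IL-2126 (658.70 against 888.44 FPKM). IL-2689 and IL-1141 show the other side, with Cyp2a5 at 600.27 and 596.93 FPKM and Cyp2a4 at 0.85 and 26.30 FPKM.

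Cyp2a12 was detected at 69.07 FPKM or more in every liver, with a median of 335.46, and 6 lines were low in all of their mice. The mice of IL-72 had 69.07 and 75.29 FPKM, those of IL-4052 69.77 and 96.73, those of IL-670 86.05, 98.39 and 91.43, those of IL-2680 105.80 and 103.21, the mouse of IL-4141 105.32, and those of IL-1061 137.34 and 131.72. Outside these lines and IL-1052 and IL-2750, every mouse was between 237.69 and 527.33 FPKM. Both of these lines held mice at either level. IL-1052 had 81.69 and 335.46 FPKM, and IL-2750 had 140.13, 354.95 and 101.92 FPKM.

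Cyp2a22, the near copy of Cyp2a12, was measured at 0.46 to 24.33 FPKM, with a median of 4.07. It amounted to between 0.598% and 7.09% of Cyp2a12, with a median of 1.41%, and line mates could differ widely. IL-785 had 3.10, 24.33 and 3.33 FPKM of Cyp2a22 beside Cyp2a12 of 335.10, 342.92 and 325.02 FPKM. The same mice of IL-1052 and IL-2750 that were high in Cyp2a12 were high in Cyp2a22, with 21.52 and 14.52 FPKM against 0.86, 1.27 and 1.14 FPKM in the others.

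Cyp2b9 was at 40.02 FPKM or more in IL-2126 (170.12), in both mice of IL-219 (105.65 and 70.36) and IL-521 (46.86 and 40.02), and in the first mouse of IL-2680 (68.70), whose line mate had 0.12 FPKM. In 18 of 29 lines the mean was under 1 FPKM. Cyp2b13 was at 105.49 FPKM in IL-2126 and at most 2.51 FPKM in any other mouse, and 25 mice were at 0. Its next highest values were in IL-219 (2.43 and 2.12) and IL-521 (1.24 and 2.51), the lines that were also next in Cyp2b9. As IL-2126 has 1 mouse, the spread within that line is not known, and at 20542671 fragments it was also the most shallowly sequenced mouse.

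Cyp2b10 ranged from 0.07 to 71.38 FPKM, with a median of 6.88. The mice of IL-2146 had 0.21 and 0.07 FPKM, and those of IL-72 20.01 and 24.52, of IL-4052 19.79 and 23.38 and of IL-2680 37.43 and 22.88. The highest line mean, 35.4 FPKM in IL-2156, came from mice at 19.51, 71.38 and 15.45 FPKM and rests on the second of them. IL-785 spread over 9.69, 0.95 and 25.73 FPKM, the last in the mouse with Xist.

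The share of variance between lines was given by the intraclass correlation (ICC) of normal scores of FPKM over all 55 mice. It was highest for Cyp2a4, at 0.873, followed by Cyp2b10 (0.741), Cyp2a12 (0.739), Cyp2b13 (0.738), Cyp2a5 (0.699), Cyp2b9 (0.564) and Cyp2a22 (0.434). Over 5949 expression traits of these livers with at least 12 levels the median ICC was 0.592, with quartiles of 0.486 and 0.693, and 98.7% of them lay below Cyp2a4 and 16.7% below Cyp2a22. The one-sided permutation p over line labels was 1e-05 for Cyp2a4, Cyp2a12 and Cyp2b10, the smallest that 100000 permutations can give, 2e-05 for Cyp2a5, 0.00162 for Cyp2b9, 0.00031 for Cyp2b13 and 0.0106 for Cyp2a22. The scores of Cyp2b13 held only 6 levels, since nearly all mice were at the floor. Those of Cyp2a4 held 16 levels and those of Cyp2b9 15, with many low mice tied. Of the 55 mice, 32 were under 1 FPKM of Cyp2a4 and 35 under 1 FPKM of Cyp2b9. The scores of the other 4 genes held 31 to 42 levels. Without IL-1052 and IL-2750 the ICC of Cyp2a22 was 0.649 and that of Cyp2a12 0.805. These lines were set aside because their mice differed at these genes, so a higher ICC without them follows from that choice. Summed over near copies, the ICC was 0.750 for Cyp2a4 with Cyp2a5 and 0.828 for Cyp2b9, Cyp2b13 and Cyp2b10.

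**Figure D2:**
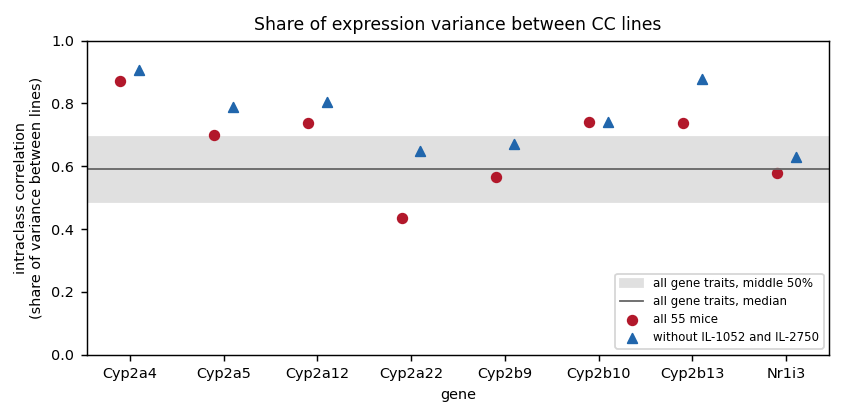
Intraclass correlation (share of variance between CC lines) of the 7 genes and Nr1i3 over all 55 mice (circles) and without the lines IL-1052 and IL-2750 (triangles). The line and band are the median (0.592) and the middle 50% (0.486 to 0.693) of 5949 gene traits. Cyp2a4 lies above the band and Cyp2a22 below it with all mice. IL-1052 and IL-2750 were left out because their mice differed at several of these genes, a choice that in itself can raise the ICC.

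Of the 21 pairs of genes, 5 were related across the 29 line means (limma on log2(FPKM + 1), p adjusted over 11283 genes), all in the same direction. Each pair was counted from 1 fit, in which the gene after "with" is the regressor. Under van der Waerden scores of the line means none of the 21 pairs passed, with a lowest adjusted p of 0.0863 for Cyp2b13 with Cyp2b9. The 5 pairs called on log2(FPKM + 1) fell in a Cyp2a group and a group around Cyp2b9. Cyp2a12 rose with Cyp2a5 by 0.34 ± 0.042 (SE) log2 units per log2 unit (adjusted p = 7.2e-05), and Cyp2a22 rose with Cyp2a5 by 0.37 ± 0.070 (adjusted p = 0.028). With Cyp2a5 as the regressor 0.0355% of all genes passed, 0.0266% upward and 0.00886% downward. Cyp2a22 rose with Cyp2a12 by 1.00 ± 0.16 (adjusted p = 0.0011), where 0.0709% of all genes passed, 0.0532% upward. Cyp2a22 shared 449 words with Cyp2a12, and whether part of its level is fragments of Cyp2a12 was not tested. Pearson's r was 0.833 for Cyp2a5 and Cyp2a12 (Spearman's rho 0.664), 0.701 for Cyp2a5 and Cyp2a22 (rho 0.633) and 0.764 for Cyp2a12 and Cyp2a22 (rho 0.668), with permutation p of 1e-05, the smallest possible, 5e-05 and 1e-05 for r, and 8e-05, 3.4e-04 and 1.2e-04 for rho. Leaving out IL-4052 and IL-72, the lines farthest from the median, gave r of 0.746, 0.603 and 0.688 in that order. The call for Cyp2a5 and Cyp2a22 was not stable, since leaving out any of IL-72, IL-521, IL-670, IL-1061, IL-1141, IL-1452, IL-3348, IL-4052 or IL-4141 gave an adjusted p between 0.0508 and 0.115, and the slope was 0.35 to 0.41 without each line in turn.

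Cyp2b13 rose with Cyp2b9 by 0.52 ± 0.073 (adjusted p = 4.4e-04), where 1.01% of all genes passed upward, with r = 0.795 and rho = 0.745 (permutation p = 1e-05 for each) and r = 0.874 without IL-219 and IL-2126. The slope rested on IL-2126. Without that line it was 0.24 ± 0.022, with an adjusted p of 1.1e-07. In the remaining lines Cyp2b13 was at most 2.51 FPKM. It reached the 2 FPKM of the filter only in IL-219 and IL-521, the lines with the next highest means of Cyp2b9. Cyp2b13 shared 193 words with Cyp2b9, and whether these low values are fragments of Cyp2b9 was not tested. Cyp2b9 rose with Cyp2a4 by 0.47 ± 0.081 (adjusted p = 0.018, where 0.0709% of all genes passed, 0.0532% upward, r = 0.727 with permutation p = 1.8e-04, rho = 0.391 with p = 0.0364, r = 0.617 without IL-2126 and IL-1452). Without IL-2126 the slope was 0.37 ± 0.083 with an adjusted p of 0.132, so that the call depends on 1 mouse, and with depth as a covariate the adjusted p was 0.0545. It also rests on the lines above the gap in Cyp2a4. Over the 25 lines below it r was -0.193 and rho 0.0538. With the roles exchanged, Cyp2a4 passed with Cyp2b9 (1.14 ± 0.20, adjusted p = 0.0047) and also with Cyp2b13 (1.46 ± 0.35, adjusted p = 0.015), and without IL-2126 the adjusted p was 0.184 and 0.166.

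Cyp2a5 did not pass with its near copy Cyp2a4, with a slope of 0.37 ± 0.10, r = 0.557 (permutation p = 0.00163), rho = 0.655 (p = 2.2e-04), r = 0.460 without IL-2126 and IL-1452 and an adjusted p of 0.179. Over the 25 lines below the gap in Cyp2a4 r was also 0.460, with rho = 0.552. Of all 21 pairs 17 had a positive r and 4 a negative one, and the negative ones all involved Cyp2b10. The lowest were those with Cyp2a22 (r = -0.536, permutation p = 0.00316, rho = -0.479, p = 0.00903, r = -0.509 without IL-4141 and IL-1452, adjusted p = 0.780) and with Cyp2a12 (r = -0.534, p = 0.00278, rho = -0.452, p = 0.0149, r = -0.450 without IL-4052 and IL-72, adjusted p = 0.482). In IL-72 and IL-4052, for instance, Cyp2b10 was at 19.79 FPKM or more while Cyp2a12 was at 96.73 FPKM or less, but neither relation passed the test over all genes.

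**Figure D3:**
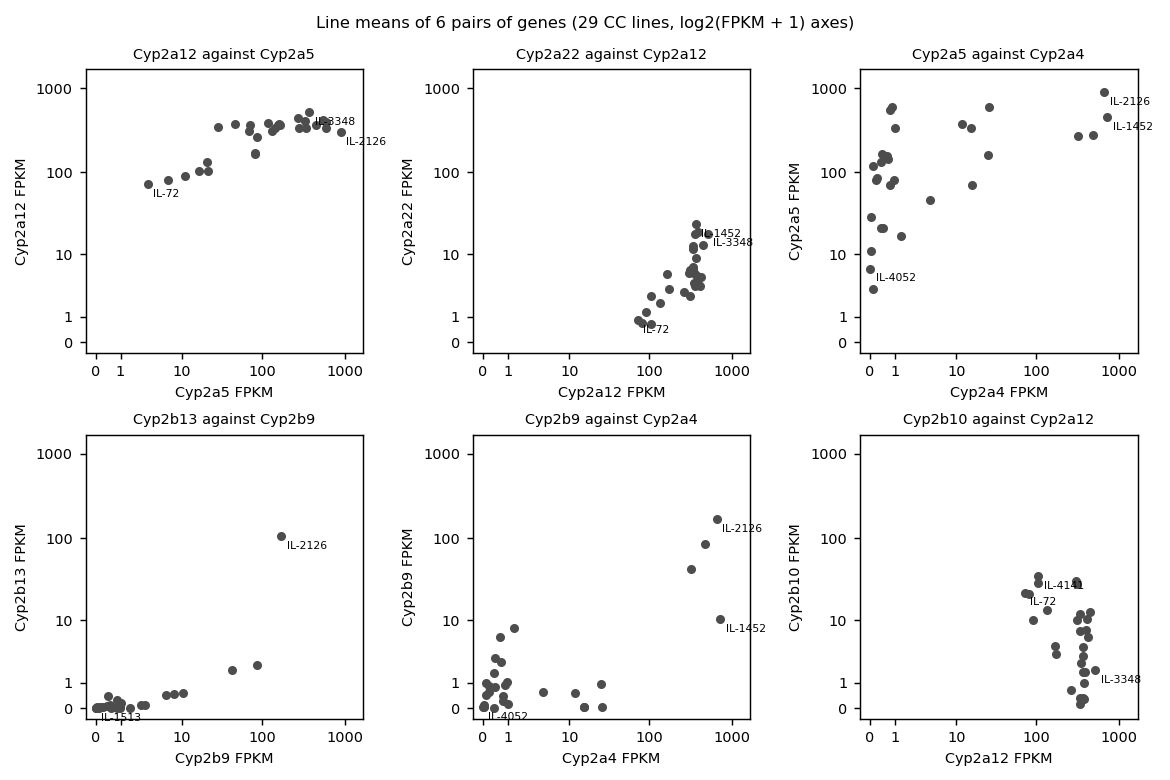
Line means of 6 pairs of genes over 29 CC lines, with both axes as log2(FPKM + 1) and labelled in FPKM. Cyp2a12, Cyp2a5 and Cyp2a22 rose together, Cyp2b13 followed Cyp2b9 with IL-2126 far from the other lines, and Cyp2a4 and Cyp2a5 had r = 0.557.

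**Figure D4:**
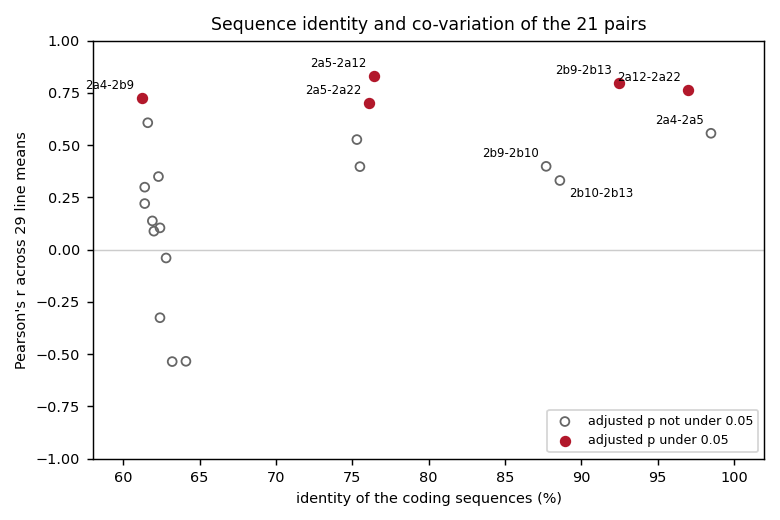
Identity of the coding sequences (horizontal axis, percent) and Pearson's r across 29 line means (vertical axis) for the 21 pairs. Filled points had an adjusted p under 0.05 (limma); the pair with 98.5% identity, Cyp2a4 and Cyp2a5, had r = 0.557, while Cyp2a5 and Cyp2a12, at 76.4% identity, had r = 0.833.

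Relations were then sought between mice of the same line, with line as a fixed factor in limma (47 mice of 21 lines, a comparison added after the data had been seen). Here 7 of the 21 pairs passed, again all in the same direction. Across lines Cyp2a5 and Cyp2b9 had r = 0.299 and an adjusted p of 0.593. Between line mates Cyp2b9 rose with Cyp2a5 by 0.64 ± 0.11 log2 units per log2 unit (adjusted p = 0.0011, with 7.13% of all genes passing, 6.35% upward), with r = 0.740 between the deviations from the line means, and the difference between these relations was not tested. Cyp2b13 rose with Cyp2b9 by 0.16 ± 0.027 (adjusted p = 0.0010, where 2.55% of all genes passed, 2.05% upward). Cyp2a22 rose with Cyp2a12 by 1.76 ± 0.23 (adjusted p = 3.6e-06, where 16.4% of all genes passed, 13.9% upward). The first 2 of these calls were lost without IL-2680. Without it the slope was 0.38 ± 0.13 (adjusted p = 0.0690) for Cyp2b9 with Cyp2a5 and 0.13 ± 0.040 (adjusted p = 0.136) for Cyp2b13 with Cyp2b9. The third was lost without IL-1052 and IL-2750, where the slope was 1.83 ± 0.63 and the adjusted p 0.315. The other 4 pairs were Cyp2a22 with Cyp2a5 (adjusted p = 0.0091) and Cyp2b13 with Cyp2a5, Cyp2a22 and Cyp2a12 (adjusted p = 0.0052, 0.0067 and 0.0472). Each of these 4 calls was lost without at least 1 line, that of Cyp2a5 and Cyp2b13 without IL-2680 (adjusted p = 0.103), those of Cyp2a22 with Cyp2a5 and of Cyp2b13 with Cyp2a22 without IL-1052 (0.0553 and 0.0762) and that of Cyp2a12 and Cyp2b13 without any of 13 lines (0.0503 to 0.426). Without each line in turn the slopes were positive. That of Cyp2b13 with Cyp2a12 was 0.24 to 0.29, with Cyp2a22 0.12 to 0.21 and with Cyp2a5 0.086 to 0.13, and that of Cyp2a22 with Cyp2a5 was 0.35 to 0.57. With the roles exchanged, Cyp2a5 with Cyp2a12 (adjusted p = 0.0485) and Cyp2a4 with Cyp2b9 and with Cyp2b13 (0.0434 and 0.0363) passed too. With Cyp2a22 as the regressor 15.5% of all genes passed, 13.3% upward, and with Cyp2b13 5.41%, 4.77% upward. IL-2126, with 1 mouse, is not in the fits between line mates, so Cyp2b13 was at most 2.51 FPKM in them. Its slopes there rest on values near 0 FPKM, and whether these are fragments of Cyp2b9 was not tested. Nor was it tested whether part of Cyp2a22 is fragments of Cyp2a12. Of the 7 pairs, 3 also passed across lines, and 3 passed without IL-1052 and IL-2750.

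The mice of IL-2680 differed in 5 of the 7 genes by large factors. They had 158.89 and 0.99 FPKM of Cyp2a5, 68.70 and 0.12 of Cyp2b9, 4.40 and 0.03 of Cyp2a4, 5.62 and 0.86 of Cyp2a22 and 1.13 and 0 of Cyp2b13. Nr1i3 was at 69.59 and 29.55 FPKM in the same mice. Cyp2a12, at 105.80 and 103.21 FPKM, did not share the contrast.

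Nr1i3, which encodes CAR, ranged from 13.12 to 104.43 FPKM in the 55 livers and had an ICC of 0.579. Across lines none of the 7 genes was related to it after adjustment, and neither was any other of the 11283 genes tested (limma, 0% called, 495 genes or 4.39% at an unadjusted p under 0.05). Cyp2b10 came nearest. It rose by 1.21 ± 0.42 log2 units per log2 unit of Nr1i3 (unadjusted p = 0.0069, adjusted p = 1.00 after rounding), with r = 0.472 (permutation p = 0.00986) and rho = 0.448 (p = 0.0162). Without IL-4457 and IL-519, the lines with the least Nr1i3, r was 0.390, and with depth as a covariate the slope was 0.90 ± 0.45. The other 6 genes had r between -0.118 and 0.325 with Nr1i3. Cyp2b10 differed between lines of like Nr1i3. At 41.6 FPKM of Nr1i3 IL-2146 had the lowest Cyp2b10 mean, 0.14 FPKM, and at 40.3 FPKM of Nr1i3 IL-72 had 22.3 FPKM.

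Between line mates, Cyp2b9 rose with Nr1i3 by 2.06 ± 0.45 (adjusted p = 0.028, where 0.7% of all genes passed, 0.682% upward, r of the deviations 0.652), and it was the 1 gene of the 7 to pass. Without IL-2680 the slope was 1.23 ± 0.40 with an adjusted p of 0.251, and without the mouse of IL-785 with Xist, which had 9.23 FPKM of Cyp2b9 and 80.11 FPKM of Nr1i3, it was 1.93 ± 0.49 with an adjusted p of 0.0611. The adjusted p was 0.062 without IL-1052 and 0.150 without IL-785. In a fit over all 55 mice with line as a random effect, which holds differences across lines as well, the slope of Cyp2b9 on Nr1i3 was 1.27 ± 0.39 with an adjusted p of 0.177. Cyp2b10 showed no such slope between line mates (0.14 ± 0.43, r of the deviations 0.0607).

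**Figure D5:**
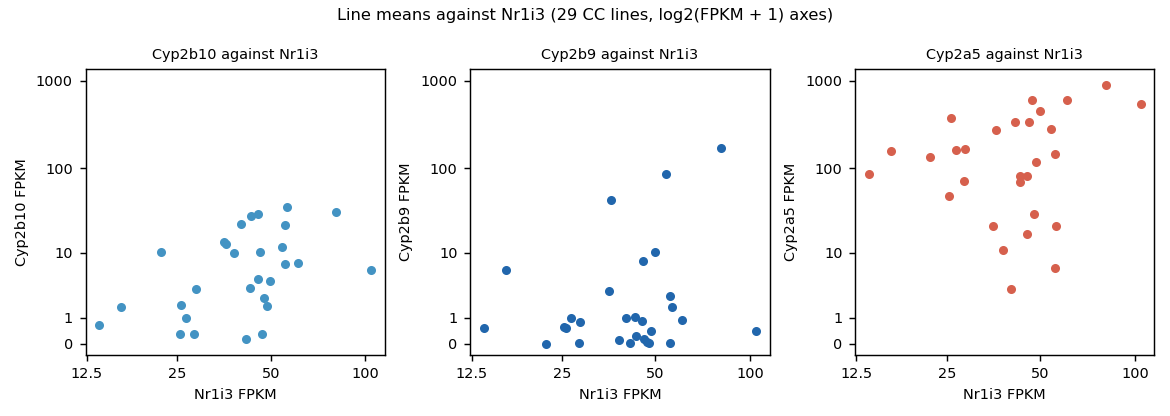
Line means of Cyp2b10, Cyp2b9 and Cyp2a5 against Nr1i3 over 29 CC lines, axes as log2(FPKM + 1) and labelled in FPKM. Cyp2b10 had r = 0.472, Cyp2b9 r = 0.230 and Cyp2a5 r = 0.153, and no slope passed after adjustment over all genes.

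Body weight and age were not related to any of the 7 genes across lines after adjustment (limma, 0% of 11284 genes called for either, with 906 and 659 genes at an unadjusted p under 0.05). Cyp2b10 had the lowest unadjusted p with age, 0.0053, with r = 0.485 (permutation p = 0.00738), rho = 0.447 (p = 0.0164) and r = 0.361 without IL-4052 and IL-2680, and an adjusted p of 0.835. With body weight, r was between -0.171 and 0.167 for the 7 genes. Depth moved with the Cyp2b genes. Its r with log2 of the total fragments of the line was -0.533 for Cyp2b9 (permutation p = 0.00379, rho = -0.500, p = 0.00606), -0.431 for Cyp2b10 (p = 0.0202, rho = -0.438, p = 0.0183) and -0.500 for Cyp2b13 (p = 0.00316, rho = -0.334, p = 0.0779), and -0.444, -0.366 and -0.374 without IL-2689 and IL-2126. What part of these levels goes with depth was not tested beyond the fits with depth as a covariate given here.

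The gene most alike to each of the 7 was sought by Spearman's rho over the 29 line means of FPKM (not of log2 values, as in the pairs above, so that rho can differ slightly) among all genes of at least 2 FPKM in some mouse. For Cyp2a5 it was Uox, the urate oxidase, with rho = 0.855, followed by its neighbour Cyp2g1 (0.843), Gstt2 (0.755), Acsm5 (0.718) and Atp5sl (0.716). For Cyp2a4 it was Acaa1b, a peroxisomal thiolase (0.769), followed by Nap1l4 (0.694), Icmt (0.692), Cyp2a5 (0.688) and Bms1 (0.676). For Cyp2a12 it was Gm15883 (0.825), followed by Pctp, a phosphatidylcholine transfer protein (0.741), Cyp4a10 (0.680), Setdb1 (0.677) and Rnf111 (0.659). Cyp2b9 and Cyp2b13 were most alike to each other (0.770), and next came Me1, the malic enzyme (0.756), Cbll1 (0.692), Nipal1 (0.681) and Prlr, the prolactin receptor (0.676), for Cyp2b9, and Cbll1 (0.712), Ces1f (0.710), Acer3 (0.685) and Maob (0.674) for Cyp2b13. For Cyp2b10 it was Cyp2c29, another P450 gene induced through CAR (0.684), with Gm2783 (0.634), Wdr31 (0.621), Agt (0.610) and Fbxl21 (0.607). Cyp2a22 had Mogat1 and Dkc1 (0.642 each), Wdr41 (0.631), Akt2-ps (0.622) and Nol11 (0.620). These are the extremes of a search over all those genes and are given as descriptions.

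Of 96 genes annotated within 1 Mb of the segment, 45 were expressed enough to be tested. Cyp2g1 (27593946 to 27606216), a P450 gene known from olfactory tissue, lies just before Cyp2a5 and rose with it by 0.28 ± 0.039 (limma, adjusted p = 2.7e-04), between 0.02 and 7.81 FPKM over lines. Gm15883 (27909500 to 27915693) rose with Cyp2a12 by 0.68 ± 0.069 (adjusted p = 8.8e-07) and with Cyp2a22 by 0.45 ± 0.070 (adjusted p = 0.0032), between 0.14 and 5.19 FPKM. It overlaps Cyp2f2 (27904928 to 27918679). The libraries were stranded, but RSEM was run with its default parameters and no use of strand in the counting is stated. The fragments of Gm15883 therefore cannot be taken as separated from those of Cyp2f2 by strand. Cyp2f2 itself had a slope of -0.24 with Cyp2a12 (adjusted p = 0.952, rho = -0.338, against 0.825 for Gm15883). Ceacam1 (26246721 to 26262644), a cell adhesion molecule, rose with Cyp2a12 by 0.58 ± 0.088 (adjusted p = 7.8e-04). Sertad1, Cyp2g1 and Cyp2f2 passed with Cyp2b13 as the regressor, where 691 genes, 6.12% of those tested, passed, 4.79% upward and 1.34% downward. Without IL-2126 that number was 3.

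Lists of genes related to these P450s were examined in the fits with each of the 7 genes as the regressor, and the CAR targets also with Nr1i3. Among 23 tested CAR target genes none passed with any of the 7. The closest was Cyp2c29 with Cyp2b10, with a slope of 0.35 ± 0.068 and an adjusted p of 0.0726, and with Cyp2b10 no gene of 11283 passed (668 at an unadjusted p under 0.05). The median slope of the 23 genes on Cyp2b10 was 0.098, against -0.0015 over all genes. At an unadjusted p under 0.05, 6 of the 23 rose with Cyp2b10 and none fell (5.92% of all genes in either direction). Such a lean was not particular to Cyp2b10. With Cyp2a5 9 rose (10.1% of all genes) and with Cyp2b9 6 (16.9%). With Cyp2b13 5 rose (22.2%) and with Cyp2a4 4 (10.8%), and none of the 23 fell with any of these. With Cyp2a12 2 rose and none fell (4.79%), and with Cyp2a22 1 rose and 1 fell (4.53%). With Nr1i3 as the regressor none of the 23 passed. At an unadjusted p under 0.05, 9 of them rose with Nr1i3 and none fell (4.39% of all genes in either direction). Their median slope on Nr1i3 was 0.36, against 0.012 over all genes. Among 19 genes with higher expression in female liver, 4 rose with Cyp2b9 and none fell (1.01% of all genes rose and 0.222% fell), with a median slope of 0.18 against 0.0044 over all genes. Among them were Hao2, a hydroxyacid oxidase (0.33 ± 0.047, adjusted p = 4.8e-04), Slc22a27 (0.20 ± 0.048, 0.0318) and A1bg (0.19 ± 0.047, 0.0439). Of 19 genes with higher expression in male liver 1 fell with Cyp2b9, the fatty acid hydroxylase Cyp4a12a (-0.30 ± 0.049, adjusted p = 0.0019), and none rose. With Cyp2b13 as the regressor, where 4.79% of all genes rose and 1.34% fell, 6 of the 19 female genes rose and 1 of the 19 male genes fell. Under van der Waerden scores no gene of any list passed. None of the female genes passed with either regressor without IL-2126, so these counts rest on 1 mouse, and only 1 passed with Cyp2b9 without IL-1052 and IL-2750. With Cyp2a4, which is itself a gene with higher expression in females, none passed, although 11 of the 19 had an unadjusted p under 0.05, all upward (10.8% of all genes in either direction), and 1 passed without the mouse with Xist.

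Of 22 transcription factors of liver P450 genes, Foxa1 rose with Cyp2b13 (0.20 ± 0.044, adjusted p = 0.0070). Of 14 genes of P450 electron transfer and heme synthesis, Cyb5, which encodes cytochrome b5, rose with Cyp2b13 (0.14 ± 0.039, adjusted p = 0.0278). These counts, 1 of 22 and 1 of 14, stand beside the 4.79% of all genes that rose with Cyp2b13. Of 11 periportal hepatocyte genes Cyp2f2 fell with it (-0.21 ± 0.056, adjusted p = 0.0268, where 1.34% of all genes fell), and none of 12 pericentral genes passed with any of the 7. No gene of these 4 lists passed with the other 6 genes as regressors, and none with Cyp2b13 without IL-2126. For Cyp2a5 the lowest unadjusted p among the factors was that of Tef (0.20 ± 0.052, adjusted p = 0.216), followed by Dbp (0.41 ± 0.11, adjusted p = 0.246), which are both clock output factors.

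In the files 5 of the 7 genes have 1 annotated isoform. The main isoform of Cyp2a5 took 98.53% to 100% of its expression, with an ICC of 0.235 (one-sided permutation p = 0.127). For Cyp2b10 the isoform ENSMUST00000005477 took 6.31% on average. It took 100% in 3 mice, of IL-2146, IL-3438 and IL-3575, where the gene had 4, 9 and 8.67 fragments. These 3 shares rest on almost no data and make up most of the average. In every other mouse the isoform took 15.5% or less. The ICC of its share was -0.197 (permutation p = 0.828), and 0.313 (permutation p = 0.122) in the 37 mice with at least 100 fragments of the gene.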

How the data were processed

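Livers of 55 CC mice were analysed by line, as given in their labels. The authors mapped paired reads of 50 bases to the mouse genome (mm9, NCBI37, Ensembl annotation) and quantified them with RSEM 1.2.18. The deposited expected counts are estimated fragments per gene, with fragments of near copies shared out by RSEM. The deposited TPM and FPKM are scaled by RSEM for length and depth, and the deposited isoform shares are in percent of a gene.

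Expected counts were rounded and tested with edgeR 4.0.16 (TMM, quasi-likelihood F test, 47 mice of 21 lines), with DESeq2 1.42.0 as an alternative. Relations were fitted with limma 3.58.1 (R 4.3.3) on log2(FPKM + 1) averaged per line, over genes reaching 2 FPKM in some mouse. All of the 7 genes passed this filter, Cyp2b13 through 3 lines. P-values were adjusted by the Benjamini-Hochberg method over all genes tested (threshold 0.05). Intraclass correlations used van der Waerden scores of FPKM in bins of the maximum divided by 200 (at least 0.5) and 100000 permutations. Sequences were aligned with biopython 1.88. The edgeR and limma fits were tested on simulated data, and the other steps were not.

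The genes, lists and relations were chosen with earlier results of these data known. The text names the 7 genes and Nr1i3, for each the 5 genes of highest rho over lines, genes within 1 Mb, and up to 4 genes per list of the smallest adjusted p. Values of 1 gene that this rule would name are not reported here. Relations between line mates, and fits without the mouse with Xist, were added after the data had been seen. Alternatives changed normalization, test, filter, pseudocount, unit, covariates, lines and mice. Read counts limit the genes near 0 FPKM. No batch is given in the labels.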

Additional observations from a re-analysis of the deposited data

How the results depend on the processing

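No paired analysis was possible because the labels give no replicate numbers that mice of different lines share. All 7 genes passed the test among lines in every fit that could test them, namely with RLE size factors, DESeq2, no filter, without IL-1052 and IL-2750, without the mouse with Xist, and without each mouse in turn (7 genes in each of 47 fits, whose trended dispersion was that of all mice). With 10 counts in every mouse 3 genes could be tested and all 3 passed. The number of all genes passing was 13523, and 13115 to 13597 without each mouse in turn. The 7 intraclass correlations passed under log2(FPKM + 1), TPM and without either doubted set of mice.

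Relations across lines were 5 among 21 pairs, and 4 or 5 without each line in turn. Under van der Waerden scores 0 pairs and 0 listed genes passed, against 15 listed genes in all; the cause was not tested. Listed genes were 1 in the 21 lines with at least 2 mice, where IL-2126 is left out, and 0 to 19 without each line in turn (0 without IL-2126, 19 without IL-219). No gene of the 7 was related to Nr1i3, body weight or age under any alternative across lines, or without any line (0 in each). With line as a random effect the adjusted p for Cyp2b9 on Nr1i3 was 0.177.

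Between line mates 7 pairs passed, 3 without IL-1052 and IL-2750 and 4 to 8 without each line in turn. With Nr1i3, 1 gene passed, and 0 without IL-2680 or without the mouse with Xist, with 0 to 1 without each line in turn. No isoform share passed under any alternative. Genes under a few FPKM rest on few fragments, and a line with 1 mouse gives no spread.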
